A study of Mus musculus with 20 samples.

Results

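The genes described here are 39 genes that drive or mark cell division, taken as a named list of G1 cyclins and kinases, CDK inhibitors, DNA replication genes and G2 and mitotic genes. A gene counted as measured where the platform annotation gave its symbol alone to a probe set, and the probe set with the highest mean signal over the 20 arrays stood for it. On this rule 35 of the 39 were measured, out of 8220 genes with such a probe set. Ccnd3, Ccnb1 and Bub1b had no listed probe set, and Tyms lay on probe sets shared with another symbol. Of the 35, 26 reached a signal of 200 on at least 5 arrays and entered the tests, which covered 7204 of 12588 probe sets. The 9 that did not were Mcm3, Mcm6, Prim1, Top2a, Mki67, Bub1, Birc5, Hmgb2 and Kif11, and their values are given from a fit with no such filter.

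Total RNA came from mice of 8 weeks, from extraocular muscle (EOM), which moves the eye, and from leg muscle, with 5 one-colour Affymetrix arrays for each muscle and genotype. Controls were wild type, per the title of the series, and the mdx allele is a point mutation of Dmd that stops the reading frame of dystrophin, which links the fibre's cytoskeleton to its membrane; such mice serve as a model of Duchenne muscular dystrophy. Control leg muscle was labelled gastrocnemius with soleus, whereas the mdx label says only leg muscle; strain and sex were not given in the sources used here. The labels do not say whether the arrays of a group came from separate animals, so p-values measure the spread between arrays, which may be partly technical. The mdx and control arrays also carry different description texts, so any batch that follows this text and the genotype cannot be told apart.

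A dividing cell passes from G1, where cyclin D with Cdk4 and cyclin E with Cdk2 release E2F factors from Rb proteins, into S phase, where the MCM helicase, PCNA and the enzymes of nucleotide supply replicate DNA. Cyclin A2 and the B cyclins with Cdk1 then carry it through G2 and mitosis, while inhibitors such as p21, p27 and p18 hold the kinases in check. Adult muscle fibres do not divide, and in dystrophic limb muscle the dividing cells are satellite cells, macrophages and fibroblasts of the regenerating tissue; extraocular muscle is known to be largely spared in mdx mice. In whole muscle, more cells of a type and more RNA per cell cannot be told apart.

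Mitotic genes are commonly regulated through a cell cycle homology region (CHR, TTTGAA) and CCAAT boxes (CCAAT), and replication genes through E2F sites, searched here as TTTCCCGC, TTTGGCGC or TTTCGCGC; both strands were searched. RefSeq promoter windows of 300 bases, from 250 before to 50 after a gene's start (build GRCm38.p6), were matched by symbol for 33 of the 39 genes, giving 39 windows; none was matched for Mcm4, Aurkb, Ccnd1, Ccnd2, Ccna2 and Stmn1. The windows of 5 genes are printed 5′ to 3′ on the gene's strand, with matches in capitals. Those of Ccnb2, Cdk1 and Cks1b show the CHR with CCAAT boxes of mitotic genes that were higher in mdx leg muscle, and Cdc20 shows both motifs in a mitotic gene that did not pass the test. The windows of Plk1 and Aurka, which did not pass either, also hold both motifs. The window of Cdk1 holds E2F letters as well, 131 bases before its start. The window of Mcm5, a replication gene that was higher, holds E2F letters and no CHR; those of Pcna and Rrm2, also higher, hold neither. They lie at chr9:70421505-70421804 on the minus strand (Ccnb2), chr10:69352863-69353162 on the minus strand (Cdk1), chr3:89418242-89418541 on the minus strand (Cks1b), chr4:118437294-118437593 on the minus strand (Cdc20) and chr8:75109259-75109558 on the plus strand (Mcm5).
Ccnb2: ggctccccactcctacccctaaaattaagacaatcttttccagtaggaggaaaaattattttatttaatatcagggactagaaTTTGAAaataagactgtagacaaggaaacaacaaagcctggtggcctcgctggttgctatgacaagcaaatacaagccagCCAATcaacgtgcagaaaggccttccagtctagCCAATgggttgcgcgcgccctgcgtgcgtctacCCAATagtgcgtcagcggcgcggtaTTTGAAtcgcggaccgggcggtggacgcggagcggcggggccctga
Cdk1: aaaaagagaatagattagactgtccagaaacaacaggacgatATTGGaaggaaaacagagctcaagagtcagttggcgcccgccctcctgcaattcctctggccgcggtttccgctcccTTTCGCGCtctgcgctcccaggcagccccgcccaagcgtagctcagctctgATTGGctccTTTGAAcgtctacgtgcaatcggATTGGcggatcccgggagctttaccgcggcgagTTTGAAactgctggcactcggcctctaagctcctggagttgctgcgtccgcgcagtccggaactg
Cks1b: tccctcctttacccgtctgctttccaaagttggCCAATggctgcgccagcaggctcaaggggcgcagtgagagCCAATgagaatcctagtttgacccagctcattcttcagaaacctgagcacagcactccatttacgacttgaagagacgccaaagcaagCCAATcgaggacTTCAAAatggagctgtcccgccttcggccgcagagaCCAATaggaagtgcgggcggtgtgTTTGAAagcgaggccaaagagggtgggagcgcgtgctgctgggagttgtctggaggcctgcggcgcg
Cdc20: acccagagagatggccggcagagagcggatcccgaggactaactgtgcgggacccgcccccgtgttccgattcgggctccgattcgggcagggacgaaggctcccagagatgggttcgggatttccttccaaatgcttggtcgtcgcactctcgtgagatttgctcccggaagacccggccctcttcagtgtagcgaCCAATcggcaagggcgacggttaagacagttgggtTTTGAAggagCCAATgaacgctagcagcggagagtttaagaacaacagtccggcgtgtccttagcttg
Mcm5: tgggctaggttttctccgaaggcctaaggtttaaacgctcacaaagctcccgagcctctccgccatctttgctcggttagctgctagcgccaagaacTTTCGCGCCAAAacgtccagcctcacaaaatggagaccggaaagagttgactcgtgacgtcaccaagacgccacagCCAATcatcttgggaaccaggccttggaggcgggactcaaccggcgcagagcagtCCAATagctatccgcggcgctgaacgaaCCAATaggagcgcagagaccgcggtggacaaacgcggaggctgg

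The CHR was present in 11 of 14 windows, 78.6%, of the G2 and mitotic genes and in 1 of 15 windows, 6.67%, of the replication genes, against 17.9% of all 32851 windows. It was found in none of the 5 windows of G1 genes and none of the 5 of inhibitors. CCAAT boxes lay in 13 of 14 windows, 92.9%, of the mitotic and 10 of 15 windows, 66.7%, of the replication genes, against 37.4% of all. The E2F letters were found in 5 of 15 windows, 33.3%, of the replication genes and 1 of 14 windows, 7.14%, of the mitotic genes, against 1.84% of all. In Cks1b a CHR lay 17 bases before the start with a CCAAT box 41 before it, and in Cdk1 a CHR lay 15 bases before the start with a reversed CCAAT box 48 before it. The 2 E2F matches of Mcm5 overlap, 149 and 153 bases before its start on opposite strands. Cdc20, whose leg difference did not pass, has a CHR 18 bases before its start and CCAAT boxes 8 and 53 before it. A match is a description of these letters and was not tested as a binding site.

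A few arrays and probe checks bear on the leg comparison. The 2 probe sets at the ends of beta-actin gave a log2 ratio of 3′ to 5′ signal of 0.50 ± 0.37 (SD, n = 5) in leg control and -1.86 ± 1.25 in leg mdx arrays, whereas those of Gapdh gave -2.48 ± 0.84 and -2.50 ± 0.14. Leg control 4 read 45.2 for the slow fibre gene Myl2, against 8608 to 20216 on the other leg controls, and 94.9 for Hoxd8, against 737 to 1416. Its 10 epithelium and gland markers summed to 11054, against 1527 to 3062 on the others. Leg control 1 was the brightest for Myl2. Between 47.2% and 52.0% of probe sets reached a signal of 200 on each array, and the number of arrays limits the precision. Dmd ran from 100.2 to 212 in leg control and from 37.3 to 126 in leg mdx arrays, and from 204 to 325 and 102 to 175 in EOM, so it was lower with overlap in leg and without overlap in EOM. The summed signal of 9 skeletal muscle fibre genes lay between 36855 and 114966 on the 20 arrays, with Tnnc2 at the floor on all of them.

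In leg muscle, 11 of the 26 tested genes were higher in mdx than in control arrays and 0 were lower; 13 had an unadjusted p under 0.05. Over all tested probe sets 10.7% were called higher and 7.15% lower, at a Benjamini-Hochberg adjusted p of 0.05 in limma. The median log2 difference of the 26 was 0.70, against -0.06 for all tested, and 22 of the 26 were positive. Groups did not overlap, with mdx arrays higher, for 9 of the 26, all of them called. Over all tested probe sets this share was 8.38%. By phase, 2 of 5 tested G1 genes were called (median 0.37), 0 of 3 inhibitors (-0.08), 3 of 9 replication genes (0.73) and 6 of 9 G2 and mitotic genes (1.53). Rrm2 and Cdk1 reached a signal of 200 only on the 5 leg mdx arrays, and Cks1b only on these and 1 EOM control array. Leg mdx arrays were also 4 of the 7 on which Aurkb reached it and 4 of the 6 for Rrm1. Without them neither would have passed the filter. All these genes entered the test through the group where they were high. The counts over tested genes are therefore not independent of this comparison. With no filter, 13 of all 35 measured genes were called higher, against 6.28% of 12588 probe sets, the added genes being Mki67 and Top2a; 8 of 15 G2 and mitotic genes and 3 of 12 replication genes were among them.

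**Figure D1:**
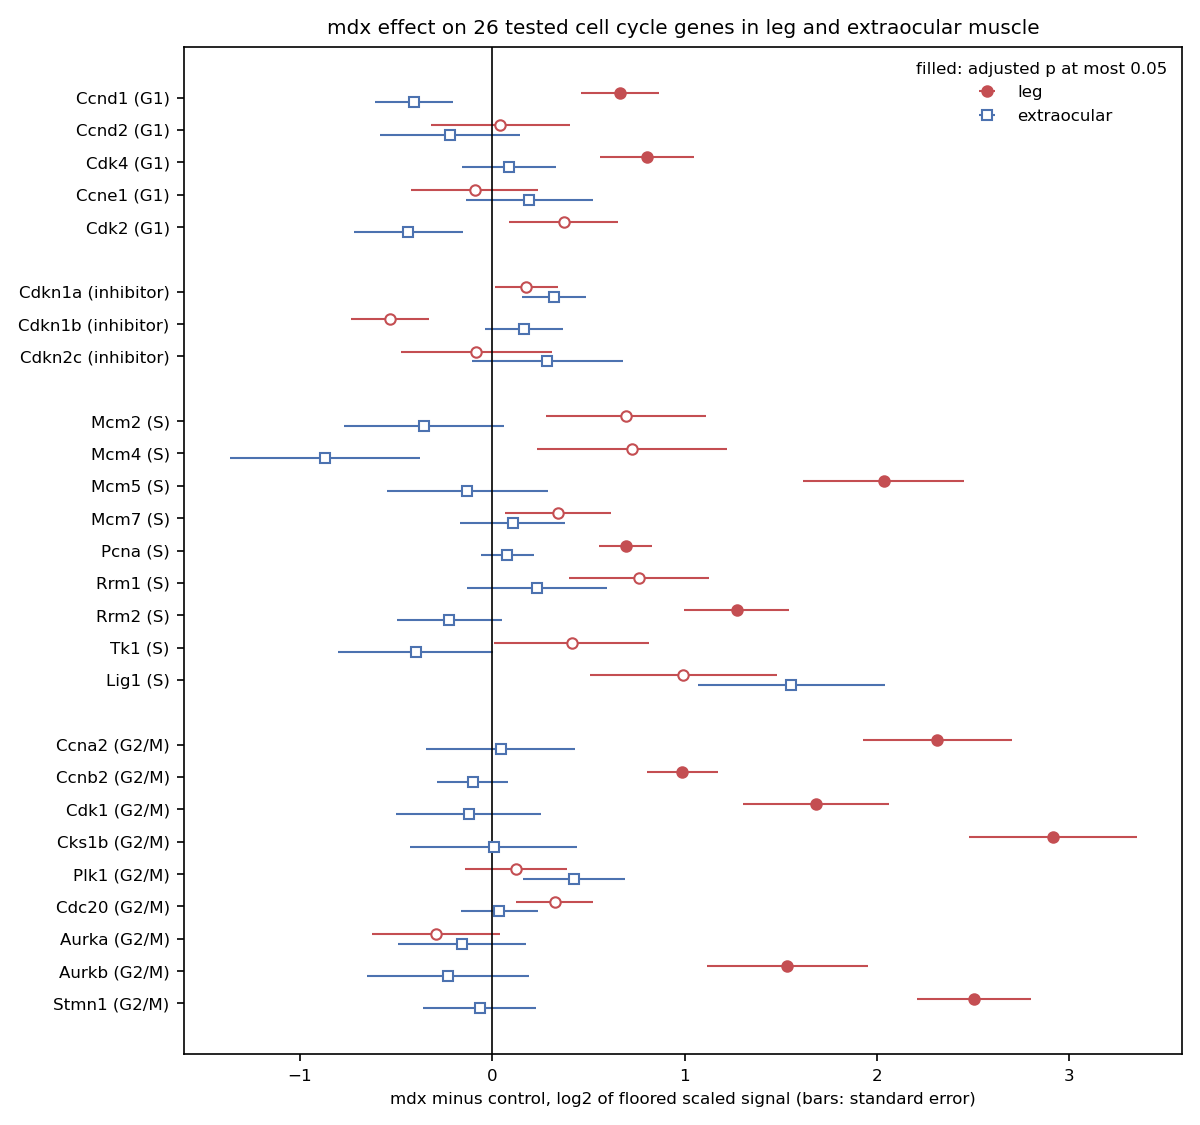
The log2 difference, mdx minus control, of each of the 26 tested genes (points, with standard errors as bars) in leg and EOM, ordered by phase from top to bottom. Filled points, 11 in leg and 0 in EOM, had an adjusted p of at most 0.05, and the G2 and mitotic genes Cks1b (2.92) and Stmn1 (2.50) lie farthest to the right.

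Ccnd1 and Cdk4 were the G1 genes called higher. Ccnd1 gave signals of 422, 595, 517, 403 and 668 on leg control arrays 1 to 5 and 592, 840.4, 1035, 897 and 758 on leg mdx arrays 1 to 5. Ccnd1, which encodes cyclin D1, was thus higher on average in mdx leg muscle, with 1 mdx array inside the control range (1.58-fold, log2 difference 0.66, SE 0.20, limma adjusted p = 0.0237). A second, dimmer Ccnd1 probe set averaged 218 in leg control and 252 in leg mdx arrays and was not called (log2 difference 0.42, SE 0.49, limma adjusted p = 0.615). For Cdk4 the leg controls read 108, 219.7, 214, 255 and 240.3, and the leg mdx arrays read 294, 350.3, 432, 251 and 450.4. Cdk4, the kinase partner of D cyclins, overlapped between the groups through mdx array 4 and read lowest on control array 1 (1.74-fold, log2 difference 0.80, SE 0.24, limma adjusted p = 0.0245). Both calls depended on which arrays were kept. That of Ccnd1 ended without leg control 1 or 4 or leg mdx 3 or 4, its adjusted p then reaching 0.0731, and also when its probe sets were averaged (0.203). That of Cdk4 ended in a fit of the leg arrays alone and without leg control 1, leg mdx 3 or leg mdx 5, which raised the adjusted p to as much as 0.0748. When leg control 1 and 4, the arrays that stand apart, were both left out, limma gave 0.194 for Ccnd1 and 0.0928 for Cdk4.

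The other G1 genes did not pass in leg muscle. Ccnd2 (cyclin D2) had a mean signal of 62.7 in control and 62.0 in mdx arrays, with a log2 difference of 0.04. Ccne1 (cyclin E1) had 438 and 406 (log2 difference -0.09), and Cdk2, its kinase, 246 and 311 (0.37, SE 0.28). Of the G1 genes, only the brighter Ccnd1 and Cdk4 probe sets therefore passed, and neither parted the groups.

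The 3 CDK inhibitors did not pass on their brightest probe sets. Cdkn1a, which encodes p21, has a pair of probe sets that disagreed. On its brighter one the leg control arrays gave 1016, 716, 623, 1092 and 758 and the leg mdx arrays 1069, 837, 874, 822 and 1081, a log2 difference of 0.18 (SE 0.17, limma adjusted p = 0.523). On its dimmer one the leg controls gave 657, 165, 285, 260.1 and 245 and the leg mdx arrays 913, 747, 707, 962 and 1133. All 5 mdx arrays lay above all 5 controls on the dimmer one (3.06-fold, log2 difference 1.61, SE 0.25, limma adjusted p = 7.97e-05). The same probe set was also higher in control EOM than in control leg muscle (log2 difference 1.42, limma adjusted p = 0.000367). Its mdx effect in leg muscle was not shown to differ from that in EOM by the interaction in limma (log2 difference 1.01, adjusted p = 0.114). Which of them follows the p21 transcript was not tested.

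Cdkn1b, which encodes p27, was the brightest gene of the list on its brighter probe set. Its leg control arrays gave 12564, 5596, 4939, 5163 and 8541 and its leg mdx arrays 5235, 5281, 4471, 3734 and 5288. Control arrays 1, 2 and 5 lay above every mdx array, and control arrays 3 and 4 lay among them (log2 difference -0.53, SE 0.20, limma adjusted p = 0.0757). It was called lower without leg control 3 or leg control 4 (adjusted p down to 0.0337). A second Cdkn1b probe set averaged only 46.5 in leg control and 52.8 in leg mdx arrays, near the floor, and was too dim for the filter. Which of the Cdkn1b probe sets follows the p27 transcript was not tested. For Cdkn2c, which encodes p18, the leg control arrays gave 204, 743, 1166, 519 and 631 and the leg mdx arrays 759, 704, 693, 205 and 572. Both groups held 1 array near 200, control 1 and mdx 4, and the remaining arrays overlapped (log2 difference -0.08, SE 0.39).

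**Figure D2:**
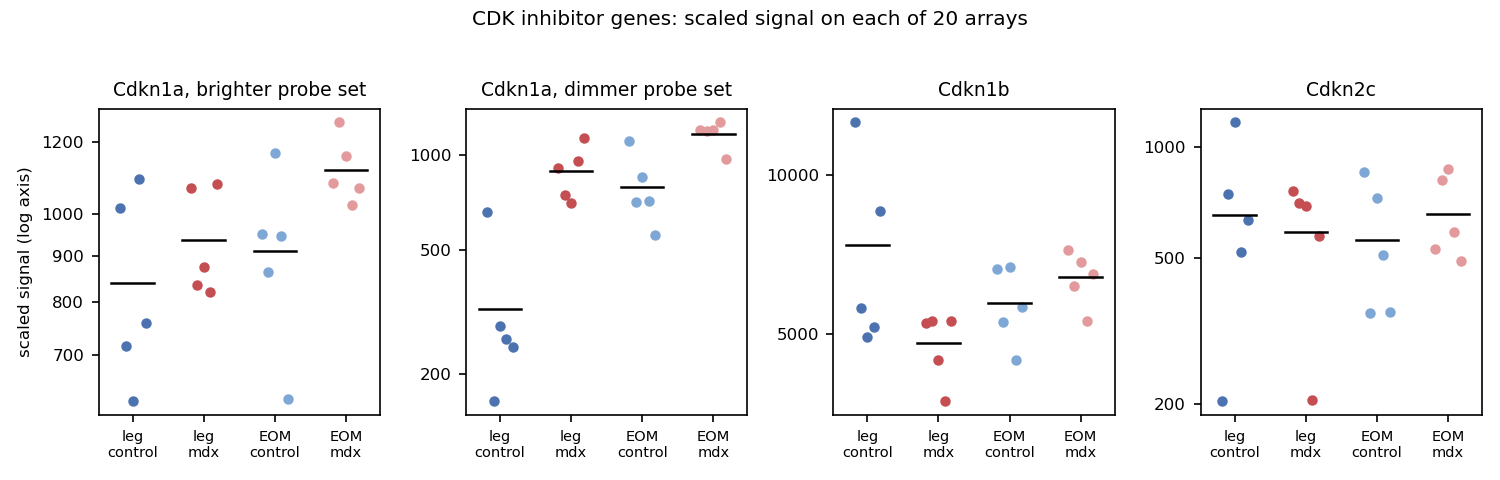
Scaled signal (log axis, a separate range in each panel) of the 3 CDK inhibitors on each of the 20 arrays, with both Cdkn1a probe sets; points are arrays and lines are group means. On the dimmer Cdkn1a probe set leg control arrays averaged 322 and leg mdx arrays 892, while on the brighter one the means were 841 and 936.

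Replication genes that were higher in mdx leg muscle were Mcm5, Pcna and Rrm2. On leg control arrays Mcm5 measured 102, 112, 417, 133 and 144, and on leg mdx arrays 473, 483, 911, 522 and 969. Mcm5, a subunit of the replicative helicase, was above 400 on every mdx array and on 1 control array, number 3, and the groups did not overlap (4.10-fold, log2 difference 2.04, SE 0.42, limma adjusted p = 0.00124). Signals of Pcna were 634, 626, 504, 459 and 468 in leg control and 666, 878, 944, 966 and 894 in leg mdx arrays. Pcna, the sliding clamp of the replication fork, lay higher on all 5 mdx arrays, of which array 1 came near the controls (1.62-fold, log2 difference 0.69, SE 0.14, limma adjusted p = 0.000839). Rrm2 gave signals of 139, 168, 122, 106 and 196 on leg control arrays 1 to 5 and 241, 328, 435, 267 and 530.1 on leg mdx arrays 1 to 5. Rrm2, the S phase subunit of ribonucleotide reductase, which makes deoxynucleotides, did not overlap between the groups (2.41-fold, log2 difference 1.27, SE 0.27, limma adjusted p = 0.00182).

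Of the other helicase subunits none passed. Mcm2 had a mean of 270.0 ± 46.4 (SD, n = 5) in control and 444 ± 115 in leg mdx arrays, with a log2 difference of 0.70 (limma adjusted p = 0.281). Mcm4 had 250.4 ± 96.0 and 390.2 ± 70.4 (log2 difference 0.73, adjusted p = 0.355), and Mcm7 220.1 ± 48.6 and 281 ± 80.2 (0.34). Whether their differences differ from that of Mcm5 was not tested. Mcm3 and Mcm6 were too dim for the filter: Mcm3 averaged 63.6 and 188 (log2 difference 1.31 in the fit with no filter, adjusted p = 0.0611), and Mcm6 92.7 and 87.4. A second Mcm3 probe set averaged 89.6 and 47.1, in the other direction, with 4 leg mdx arrays at the floor. It was not called with no filter (log2 difference -0.65, limma adjusted p = 0.270).

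Among enzymes of nucleotide supply and ligation, Rrm1, the large subunit of ribonucleotide reductase, averaged 246 ± 148 in control and 379 ± 115 in leg mdx arrays and did not pass (log2 difference 0.76, limma adjusted p = 0.163). It passed without leg control 1 and 4 (adjusted p = 0.0145), which gave 461 and 336 against 106 to 185 on the other controls. Tk1, thymidine kinase, averaged 372 and 517 (0.41), and Lig1, the DNA ligase that joins Okazaki fragments, 181 and 353 (0.99, adjusted p = 0.179). Prim1, the primase subunit, lay below 100 on average in every group.

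The G2 and mitotic genes held the largest differences of the list. For Ccna2 the leg controls read 136, 297, 139, 152 and 105, and the leg mdx arrays read 521, 585, 1023, 725 and 1203. Ccna2, which encodes cyclin A2, was at least 521 on each mdx array and at most 297 on each control (4.97-fold, log2 difference 2.31, SE 0.39, limma adjusted p = 0.000156). On leg control arrays Ccnb2 measured 399, 533, 487, 439 and 627, and on leg mdx arrays 861, 753, 1091, 918 and 1350.2. Ccnb2, a B cyclin, parted the groups, though its fold was smaller (1.98-fold, log2 difference 0.99, SE 0.19, limma adjusted p = 0.000529). Signals of Cdk1 were 194, 161, 70.5, 84.9 and 155 in leg control and 276, 439.8, 633, 311 and 413 in leg mdx arrays. Cdk1, the kinase of mitotic entry, also parted the groups, with all controls below 200 (3.21-fold, log2 difference 1.68, SE 0.38, limma adjusted p = 0.00293). Cks1b gave signals of 54.8, 33.0, 80.5, 74.0 and 53.3 on leg control arrays 1 to 5 and 221, 399.9, 652, 474 and 779.7 on leg mdx arrays 1 to 5. Cks1b, a small subunit that binds cyclin-dependent kinases, stood near the floor of 50 in controls and above 200 on each mdx array (7.55-fold, log2 difference 2.92, SE 0.44, limma adjusted p = 3.96e-05).

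For Aurkb the leg controls read 109, 119, 88.4, 81.7 and 113, and the leg mdx arrays read 335, 281, 187, 217 and 567. Aurkb, the kinase of the chromosomal passenger complex, was higher on all 5 mdx arrays, which varied among themselves (2.90-fold, log2 difference 1.53, SE 0.42, limma adjusted p = 0.0126); without leg control 1 and 4 its adjusted p was 0.0574. On leg control arrays Stmn1 measured 267, 171, 203, 118 and 37.7, and on leg mdx arrays 604, 644, 956, 911 and 949.5. Stmn1, which encodes the microtubule destabiliser stathmin, had the smallest adjusted p of the 26 tested genes, with no overlap (5.68-fold, log2 difference 2.50, SE 0.29, limma adjusted p = 1.81e-06). A second Stmn1 probe set was near or under the floor in all groups and called in none. Without leg control 1 and 4, 9 genes were called in leg muscle, 8 of them among the 11; Ccnd1, Cdk4 and Aurkb were not, and Rrm1 was added.

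**Figure D3:**
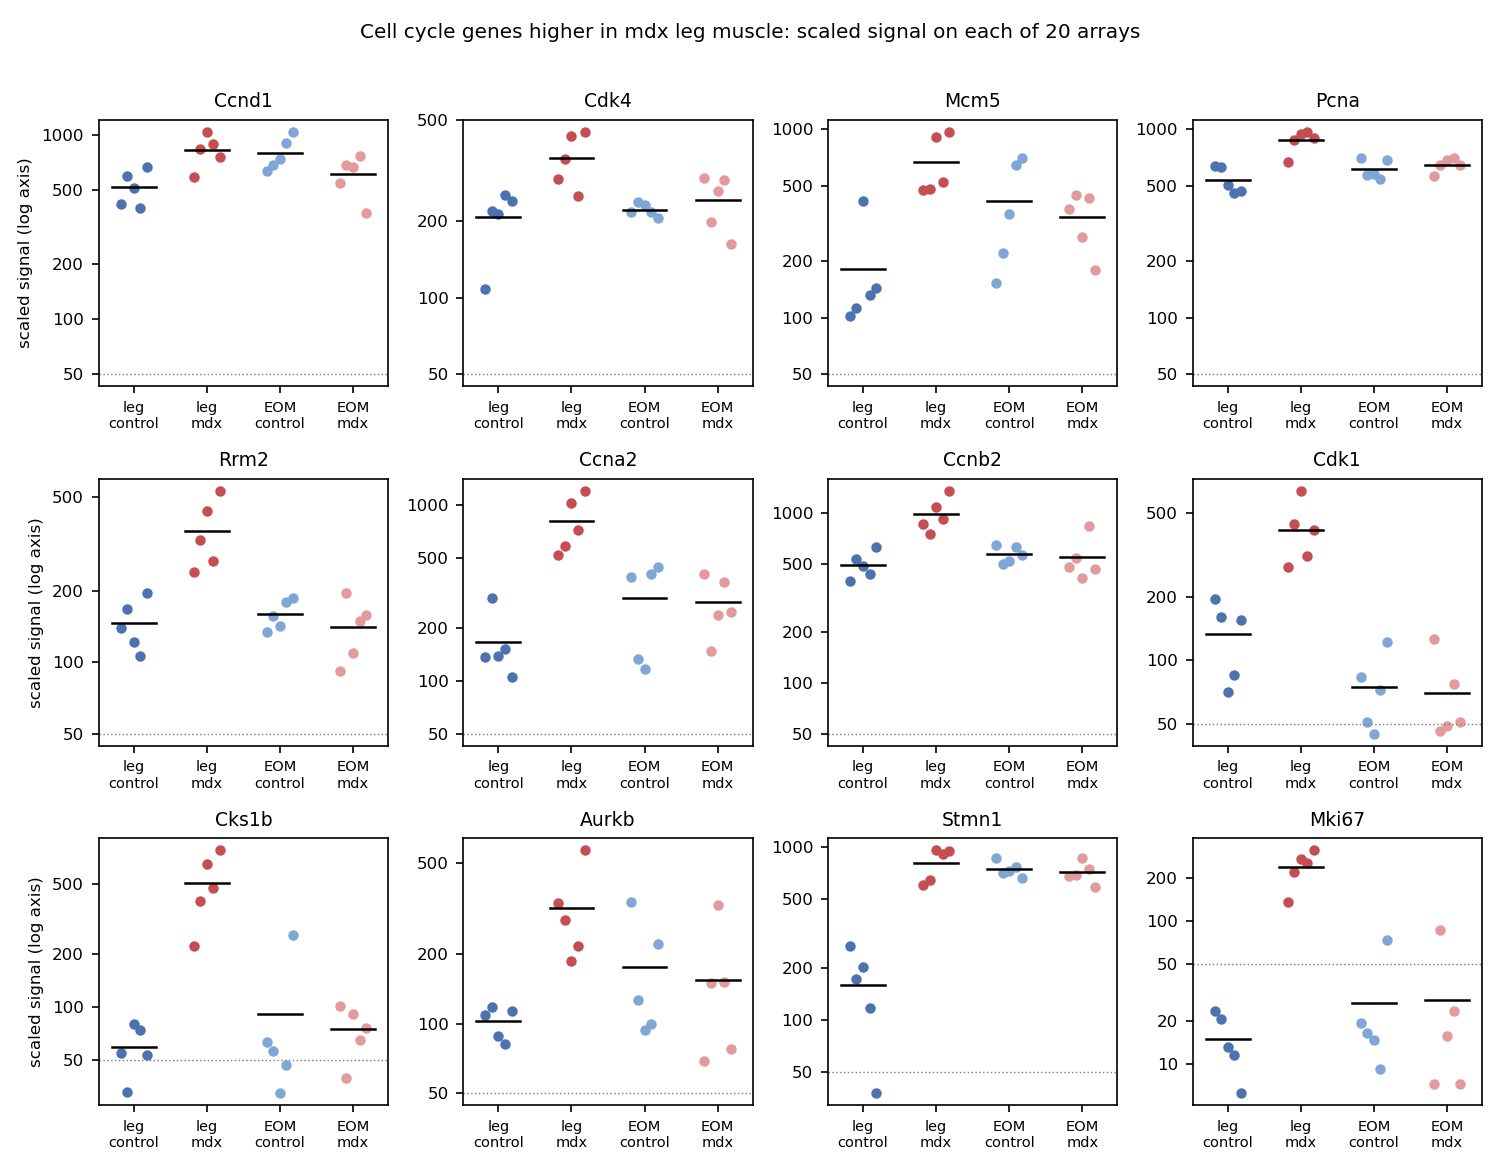
Scaled signal (log axis, a separate range in each panel) on each of the 20 arrays for the 11 genes called higher in mdx leg muscle and for Mki67, called with no filter; points are arrays, solid lines group means and the dotted line the floor of 50. Cks1b averaged 59.1 in leg control and 505 in leg mdx arrays, against 91.0 and 74.9 in EOM, whereas Stmn1 was about as bright in EOM (means 744 and 713) as in mdx leg muscle (813).

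Several classical proliferation markers were too dim to be tested after filtering. Mki67, which encodes the Ki-67 antigen, gave 23.4, 20.7, 13.2, 11.6 and 6.30 on the leg control arrays and 137, 222, 271, 256 and 314 on the leg mdx arrays. All 5 controls lay under the floor and all 5 mdx arrays above it (at least 4.63-fold, log2 difference 2.21, SE 0.20, limma adjusted p = 8.57e-07, with no filter). Top2a, the topoisomerase that untangles chromosomes, gave 21.5, 22.6, 17.5, 19.1 and 31.9 on leg control and 23.1, 87.3, 166, 63.1 and 219.8 on leg mdx arrays. Its mdx arrays 3 and 5 were highest, and mdx array 1 lay within the control range (2.00-fold, log2 difference 1.00, SE 0.28, limma adjusted p = 0.0281, with no filter). Kif11, a spindle motor, had means of 44.0 and 139 (log2 difference 1.15, adjusted p = 0.108), and Hmgb2, a chromatin protein, 38.9 and 125 (1.04, 0.0778). Birc5, which encodes survivin, had 137 and 233 (0.63, 0.388), and Bub1, a spindle checkpoint kinase, 27.6 and 47.6; neither passed.

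Tested mitotic genes without a call were Cdc20, Plk1 and Aurka. Cdc20, an activator of the anaphase-promoting complex, averaged 602 ± 134 in control and 746 ± 130.3 in leg mdx arrays (a log2 difference of 0.32, limma adjusted p = 0.296). Plk1, a mitotic kinase, averaged 375 ± 97.7 and 405 ± 71.7 (0.12), while its dimmer probe set had 66.2 and 152 and was not called with no filter (adjusted p = 0.147). Aurka, the kinase of spindle poles, averaged 235 ± 52.8 and 193 ± 46.6 (-0.29). Whether these genes differ in their change from Cks1b, Stmn1 and Ccna2 was not tested.

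Within the leg mdx group, the called genes were often highest or lowest on the same arrays. Of the 11, 8 were lowest on mdx array 1 and 7 highest on mdx array 5, and mdx array 3 was among the top 2 arrays for 10. The summed signal of 19 macrophage markers on mdx arrays 1 to 5 was 42542, 45281, 56065, 52130 and 54850, so array 1 was lowest and array 3 highest for it. The other cell types differed in their order. Satellite cell and myoblast markers summed highest on array 1, to 25185 against 18968 to 19905 on the others. So did fibroblast markers, to 69260 against 61146 to 66512, and also skeletal muscle fibre markers and epithelium and gland markers. Erythroid markers summed lowest on array 1, to 5490 against 8244 to 14515. Lymphocyte, endothelial and slow fibre markers were not highest on it. These orders were noticed after the values were seen, and their relation to the gene values was not tested.

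**Figure D4:**
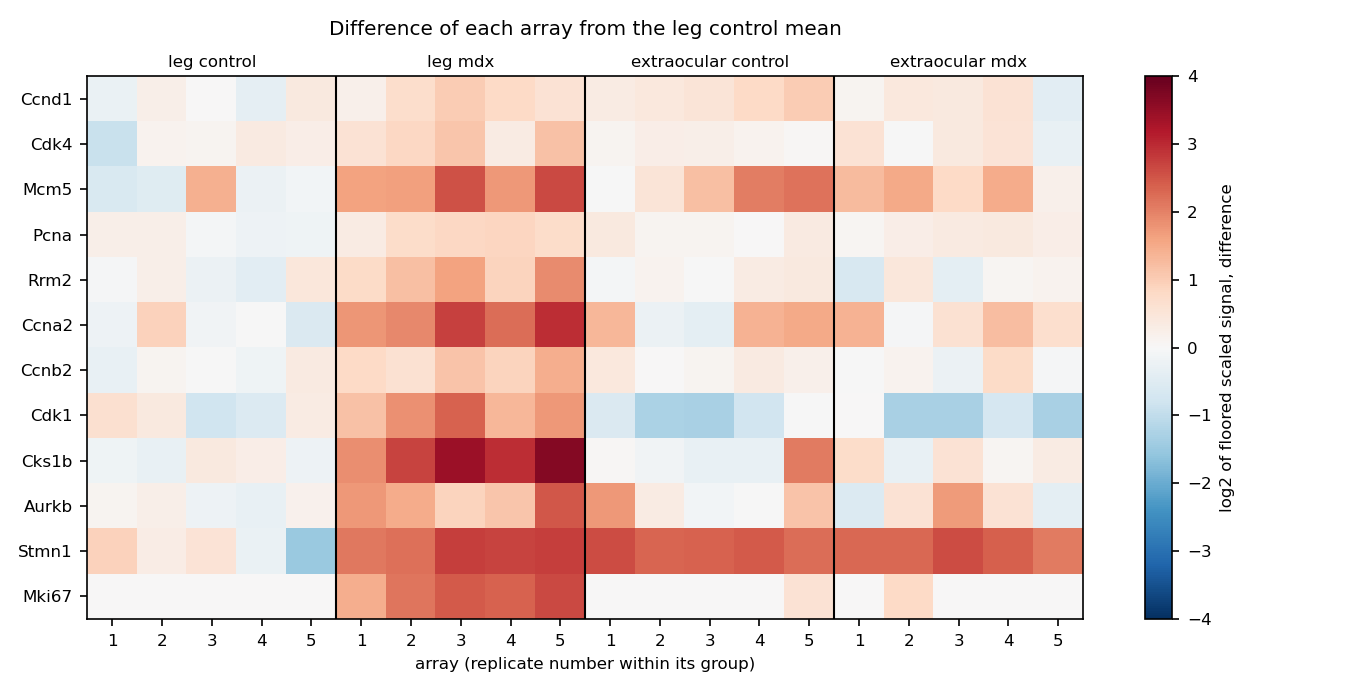
Difference of each array from the leg control mean, in log2 of the floored scaled signal (colour, red higher and blue lower), for the 11 called genes and Mki67 on the 20 arrays. Leg mdx arrays 3 and 5 are the darkest red for most genes, and in EOM arrays Stmn1 is red throughout.

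Further cell cycle genes, listed by function, were also compared in leg muscle. Of 23 other replication genes tested, 5 were higher and 0 lower (median log2 difference 0.29). Dck, deoxycytidine kinase, averaged 304 in control and 577 in mdx arrays (1.92-fold, limma adjusted p = 0.00220), and Fen1, the flap endonuclease, 125 and 255 (2.04-fold, limma adjusted p = 0.0167). Uhrf1, a maintenance methylation factor, averaged 150.2 and 336 (2.34-fold, limma adjusted p = 0.0194), and Cdc6, an origin loading factor, 132 and 271 (2.14-fold, limma adjusted p = 0.0284). Of 23 other regulators, 2 were higher and 1 lower (median 0.25). The antiproliferative gene Btg1 (2.30-fold, limma adjusted p = 0.000851) and the stress gene Gadd45a (1.93-fold, limma adjusted p = 0.00163) rose, and Gadd45g fell (1.62-fold, limma adjusted p = 0.0392). Of 24 other mitotic and chromosome genes, 3 were higher and 0 lower (median 0.10), among them the condensin subunit Smc4 (2.51-fold, limma adjusted p = 1.05e-05), the chromosome motor Kif22 (1.99-fold, limma adjusted p = 0.00231) and the histone variant gene H2az1 (1.61-fold, limma adjusted p = 0.0355). Over all tested probe sets, as given above, the shares were 10.7% and 7.15%. The counts of other regulators and of other mitotic and chromosome genes lay near these shares and set neither list apart from all probe sets.

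Markers of cells that can divide or enter dystrophic muscle were examined in the same comparison. All 15 tested macrophage markers were higher in mdx leg muscle, and the summed signal of 19 ran from 5614 to 7873 in control and from 42542 to 56065 in mdx arrays. Of 11 fibroblast markers 10 were higher, with sums of 26186 to 34034 and 61146 to 69260. Of 15 tested satellite cell and myoblast markers 6 were higher, namely Myog, Ncam1, Itga7, Chrna1, Igf2 and Peg3, with sums of 11301 to 15858 and 18968 to 25185. The other 9 had no call. The median log2 difference of the 15 was 0.25, and only 9 of them were positive. Of 7 tested lymphocyte markers only Thy1 was higher; the sums overlapped (3815 to 5204 and 3972 to 5018), and the T cell marker Cd3g was under the floor on all 10 leg arrays. Of 8 endothelial markers 0 were higher and Flt1 was lower, and 0 of 3 erythroid markers were called. The part of these cell types in the signals of the cell cycle genes was not tested.

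In EOM, 0 of the 26 tested genes were called between mdx and control arrays in limma, and 1, Lig1, had an unadjusted p under 0.05. The call rate over all probe sets was 0.0833% in either direction, 6 of 7204. The median log2 difference of the genes was -0.03, against -0.02 for all tested, and 13 of 26 were positive. With no filter 0 of 35 were called. Replication genes had a median of -0.13 and G2 and mitotic genes one of -0.07. Lig1 averaged 93.3 ± 31.4 (SD, n = 5) in control and 307 ± 157 in mdx arrays (log2 difference 1.56, limma adjusted p = 0.715). A second Lig1 probe set averaged 255 and 198, in the other direction, and did not pass either (log2 difference -0.52); in leg it averaged 217 and 229.

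For the genes called in leg muscle, the EOM arrays of the genotypes overlapped. Ccna2 gave 391, 132, 117, 403 and 444 on EOM control and 403, 149, 236, 366 and 245 on EOM mdx arrays, with overlapping ranges (log2 difference 0.04, SE 0.39). Cks1b gave 62.8, 56.0, 32.4, 46.6 and 257 on EOM control and 102, 39.6, 91.7, 65.1 and 76.4 on EOM mdx arrays; control array 5 stood above the other 9 (log2 difference 0.01, SE 0.44). Cdk1 gave 83.5, 51.3, 45.0, 72.1 and 122 on EOM control and 126, 46.4, 48.9, 76.8 and 50.8 on EOM mdx arrays, at or near the floor on most of the 10 (log2 difference -0.12, SE 0.38). None of these 3 mitotic genes parted the genotypes in EOM. Mcm5 gave 153, 220.1, 355, 649 and 699 on EOM control and 376, 447, 268, 432 and 178 on EOM mdx arrays (log2 difference -0.13, SE 0.42). Stmn1 gave 862, 703, 725, 763 and 665 on EOM control and 683, 691, 858, 743 and 589 on EOM mdx arrays, bright and even in both genotypes (log2 difference -0.07, SE 0.29). Ccnd1 gave 638, 683, 739, 898 and 1040.5 on EOM control and 550.0, 687, 668, 770.2 and 378 on EOM mdx arrays, lower on average in mdx arrays without passing (log2 difference -0.41, SE 0.20, limma adjusted p = 0.958).

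The remaining called genes also overlapped. Ccnb2 ran from 500.5 to 653 in EOM control and 416 to 837 in EOM mdx arrays, Pcna from 544 to 703 and 564 to 697, and Rrm2 from 135 to 187 and 92.1 to 197. Their log2 differences were -0.10, 0.08 and -0.22. Cdk4 ran from 207 to 237 and 163 to 297, and Aurkb from 93.5 to 336 and 69.1 to 329; their log2 differences were 0.09 and -0.23. Mki67 lay under the floor on all EOM arrays but control 5 (74.3) and mdx 2 (86.4), and Top2a on every EOM array. For the inhibitors, Cdkn1a on its brighter probe set gave 950.0, 864, 1168, 946 and 626 on EOM control and 1082, 1261, 1159, 1024 and 1067 on EOM mdx arrays (log2 difference 0.32), and Cdkn1b averaged 5730.4 and 6396 (0.17). Cdkn2c averaged 559.7 and 658 (0.29). On its dimmer probe set Cdkn1a averaged 789 and 1169 (log2 difference 0.60, limma adjusted p = 0.955).

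Of the other cell cycle lists 0 genes were called in EOM, with 0, 1 and 0 genes at an unadjusted p under 0.05 among other replication genes, other regulators and other mitotic genes. In EOM, 1 of 15 macrophage markers was higher in mdx arrays, with sums of 8784 to 12742 in control and 9555 to 16874 in mdx arrays, and 0 of 11 fibroblast markers were called. The extraocular myosin gene Myh13, which would check the tissue label, was not analysed here.

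The mdx effect was larger in leg muscle than in EOM for 8 of the 26 genes, by the interaction in limma, and smaller for 0; 12 had an unadjusted p under 0.05. The 8 include Rrm2, Cdk1 and Cks1b, which entered the test through the leg mdx arrays. With no filter 6 of 35 were called larger, Cks1b, Stmn1, Ccna2, Rrm2, Ccnb2 and Mki67 (adjusted p = 0.000198 for Mki67), against 2.3% of all probe sets. Over all tested probe sets 4.93% were called larger and 1.29% smaller. By phase the 8 were 1 of 5 G1 genes, 0 of 3 inhibitors, 2 of 9 replication genes and 5 of 9 G2 and mitotic genes. The log2 difference between the effects was 2.91 for Cks1b (SE 0.62, adjusted p = 0.00533), 2.57 for Stmn1 (0.42, 0.000413) and 2.27 for Ccna2 (0.55, 0.0133). It was 1.49 for Rrm2 (adjusted p = 0.0214) and 1.09 for Ccnb2 (0.0131). For Mcm5 it was 2.16 (0.0300), for Cdk1 1.81 (0.0471) and for Ccnd1 1.07 (0.0264). On the dimmer Ccnd1 probe set it was 0.59 and not called (limma adjusted p = 0.736). The effects of Aurkb (1.76, 0.0895), Pcna (0.62, 0.0622) and Cdk4 (0.72, 0.273) were not shown to differ between the muscles. Of the other lists, Smc4 (1.56, 0.000370), Kif22 (1.13, 0.0289) and Dck (1.00, 0.0420) differed. So did 13 of 15 macrophage markers, 9 of 11 fibroblast markers and 4 of 15 satellite cell and myoblast markers, all with the larger effect in leg muscle; their part in the gene effects was not tested.

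The calls of Cks1b, Stmn1, Ccna2, Rrm2 and Ccnb2 were kept in each of the 20 fits that left out 1 array. That of Ccnd1 ended without EOM control 4 or 5 or leg mdx 3, where the adjusted p was at most 0.0561, and also with no filter or with its probe sets averaged. That of Mcm5 ended in 9 of the fits, without EOM control 4 or 5, leg control 1, 2 or 5, leg mdx 3 or 5, or EOM mdx 3 or 5, with up to 0.0631, and also with no filter or with array weights. For Cdk1 the call was kept in 6 of the 20, without EOM control 2 or 3, leg control 1 or 2, leg mdx 1 or EOM mdx 1, and the adjusted p reached 0.108; it also ended with quantile normalization, a floor of 20 or no filter. Conversely, Aurkb was called without EOM mdx 3 (0.0313), and Pcna without leg control 1, leg control 2 or leg mdx 1 (down to 0.0238), with a filter at 500 or with probe sets averaged. Without leg control 1 and 4 together 3 of the 8 calls remained, Ccna2, Cks1b and Stmn1, while Rrm2 had an adjusted p of 0.0685, Ccnb2 0.0554, Cdk1 0.0762, and Ccnd1 and Mcm5 0.102 each.

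Between the muscles of control mice, 3 of the 26 genes were higher in EOM and 2 lower, against 10.3% and 7.41% of all tested probe sets. Both counts lay near these shares and did not set the list apart from all probe sets. Ccnd2 gave 75.7, 103, 37.4, 46.8 and 50.4 on leg control and 279.5, 347, 281, 256 and 153 on EOM control arrays, without overlap (4.04-fold, log2 difference 2.02, SE 0.36, limma adjusted p = 0.000377). Stmn1 was also higher in EOM, with EOM control arrays at 665 to 862 and leg controls at 37.7 to 267 (5.27-fold, log2 difference 2.40, SE 0.29, limma adjusted p = 4.05e-06). The smaller difference of Ccnd1 (log2 difference 0.62, limma adjusted p = 0.0353) ended without EOM control 3, 4 or 5 or leg control 1, 3 or 4, with up to 0.0995, and without leg control 1 and 4 together (0.243). The dimmer Ccnd1 probe set was not called in this comparison (log2 difference 0.91, limma adjusted p = 0.232). Rrm1 gave 461, 106, 185, 336 and 144 on leg control and 68.6, 102, 95.6, 52.1 and 82.3 on EOM control arrays. It was lower on all 5 EOM arrays (2.73-fold, log2 difference -1.45, SE 0.36, limma adjusted p = 0.00737), a call that ended without leg control 1 and 4 together (0.122). Aurka gave 219.9, 327, 205, 198 and 223 on leg control and 22.5, 90.2, 86.7, 66.6 and 98.5 on EOM control arrays, again without overlap (3.03-fold, log2 difference -1.60, SE 0.33, limma adjusted p = 0.00167). Mcm5, not called with all arrays, was higher in EOM without EOM control 1 or 2, leg control 3 or EOM mdx 5 (adjusted p down to 0.00919), and with a filter at 500. Ccnd2 reached 200 only on EOM arrays, and Rrm1 and Aurka only on leg arrays, so they entered the test through the muscle where they were high. With no filter 2 of 35 genes, Ccnd2 and Stmn1, were higher and 2, Rrm1 and Aurka, lower (adjusted p of at most 0.0142), against 5.26% and 3.81% of all probe sets. In this comparison 7 of 11 fibroblast markers, 3 of 15 macrophage markers and 3 of 15 satellite cell and myoblast markers were also higher in EOM; their part in the values was not tested.

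**Figure D5:**
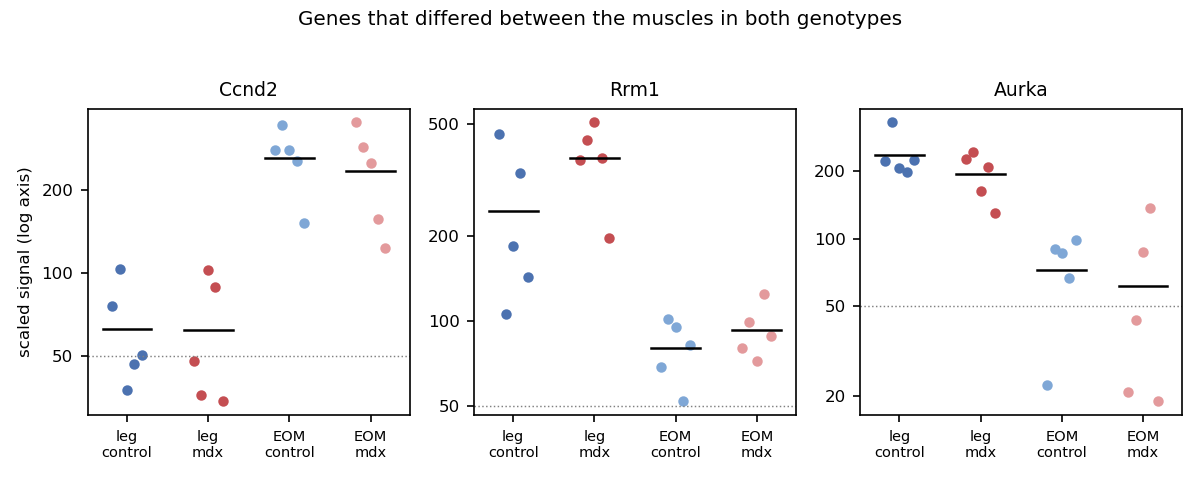
Scaled signal (log axis) on each of the 20 arrays for Ccnd2, Rrm1 and Aurka, which differed between the muscles in control and in mdx mice; points are arrays, solid lines means and the dotted line the floor of 50. Ccnd2 averaged 263 and 235 in EOM against 62.7 and 62.0 in leg, while Rrm1 (80.1 and 93.2 against 246 and 379) and Aurka (72.9 and 61.5 against 235 and 193) were lower in EOM.

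In mdx mice, 1 gene was higher in EOM than in leg muscle and 8 were lower, against 9.24% and 8.83% of all tested probe sets. Rrm2, Cdk1 and Cks1b entered the test through the leg mdx arrays, Rrm1 and Aurka through leg arrays and Ccnd2 through EOM arrays. The counts of calls are therefore not independent of this comparison. Ccnd2 gave 48.0, 36.0, 103, 88.8 and 34.2 on leg mdx and 354, 287, 253, 157 and 123 on EOM mdx arrays and was higher in EOM (3.37-fold, log2 difference 1.75, SE 0.36, limma adjusted p = 0.00140). Rrm1 gave 372, 439.6, 507, 379.8 and 197 on leg mdx and 80.4, 99.4, 72.3, 125 and 88.4 on EOM mdx arrays and was lower (3.95-fold, log2 difference -1.98, SE 0.36, limma adjusted p = 0.000423). Aurka gave 226, 242, 162, 207 and 129 on leg mdx and 20.9, 43.6, 87.2, 137 and 19.0 on EOM mdx arrays and was lower with overlap (2.76-fold, log2 difference -1.46, SE 0.33, limma adjusted p = 0.00324). These genes differed between the muscles in both genotypes, while the mdx effect on Ccnd2, Rrm1 and Aurka was called in neither muscle. The other 6 were lower in mdx EOM and had been called higher in mdx leg muscle, an array group that the comparisons share: Cks1b (6.20-fold, limma adjusted p = 0.000145), Cdk1 (6.04-fold, 3.42e-05), Ccna2 (2.93-fold, 0.00644), Rrm2 (2.53-fold, 0.00115), Ccnb2 (1.83-fold, 0.00181) and Pcna (1.34-fold, 0.0363). That of Pcna ended in 7 of 20 fits, without leg mdx 2, 3, 4 or 5 or EOM mdx 1, 2 or 5, with up to 0.0910. With no filter 1 of 35 genes, Ccnd2, was higher and 11 were lower, against 4.92% and 5.06% of all probe sets: the 8 above and Mki67, Top2a and Birc5. Stmn1, with means of 813 and 713, was not called between the muscles of mdx mice (log2 difference -0.17, SE 0.29). All 15 tested macrophage markers and 4 of 11 fibroblast markers were lower in mdx EOM than in mdx leg muscle. Of the other lists, 4 of 15 satellite cell and myoblast markers were higher and 3 lower, and 4 of 8 endothelial, 3 of 4 epithelium and gland, 2 of 3 erythroid and 3 of 7 skeletal muscle fibre markers were higher, with 1 fibre marker and 1 of 7 lymphocyte markers lower. The log2 ratio of 3′ to 5′ signal was -1.86 ± 1.25 (SD, n = 5) in leg mdx and 0.17 ± 0.35 in EOM mdx arrays for beta-actin, and -2.50 ± 0.14 and -1.27 ± 0.62 for Gapdh. The part of these markers and ratios in the gene differences was not tested.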

How the data were processed

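Total RNA of 20 one-colour arrays in 4 groups of 5 was read as deposited by the authors: 1 linear intensity per probe set and array, from 0.4 to 95476.8. The summarising software and its scaling are not given in the sources used here. Each array was scaled so that the 2% trimmed mean of 12588 non-control probe sets (66 controls left out) was 500, values under 50 were set to that floor, and log2 was taken; this understates folds of dim genes. Signals in the text are scaled values before the floor, and a fold is 2 to the power of the fitted log2 difference, a ratio of geometric means after the floor that can lie above or below the ratio of the printed means; it is "at least" where all 5 dimmer arrays, and no brighter one, were at the floor. Probe sets reaching 200 on 5 arrays were tested in limma 3.58.1 (R 4.3.3; lmFit, eBayes with trend, 4 groups, 16 residual degrees of freedom, 5 contrasts), with Benjamini-Hochberg adjustment within each contrast at 5%. Fits leaving out arrays kept the same tested probe sets. No array pair was identical. The procedure recovered known changes when checked on simulated data. Their noise was independent between arrays and probe sets, so the check does not cover outlying arrays or a batch.

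Genes were named by annotation: 10276 probe sets had 1 symbol, 363 several and 1949 were unlisted, and some early probe sets may not measure their gene. Members, lists and naming rules (per-array values for genes called in an mdx comparison or in the difference of the effects and for inhibitors, up to 4 genes per other list) were chosen with earlier results of these data known. Mki67, Top2a, Ccnd2, Rrm1 and Aurka were given per array after their values were seen. Processing was varied one choice at a time: the deposited scale or quantiles, a floor of 20 or 100 or a pseudocount of 50 in its place, no filter or a filter at 500, array weights or no trend, fitting the compared groups alone, blocking on replicate number, averaging a gene's probe sets, and omitting arrays singly. Omitting leg control 1 and 4 together was chosen after seeing the data.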

Additional observations from a re-analysis of the deposited data

Results flagged for a closer look

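In 9 of the 104 gene and group combinations examined, 1 of the 5 arrays lay so far from the rest that its gap to the nearest exceeded 0.71 of the group's range; chance does so in about 1 of 20. Cdk4 read 108 on leg control 1, against 214 to 255 on the other 4 leg controls. For Mcm5, leg control 3 stood high at 417, the others at 102 to 144. Leg control 5 was low for Mcm7, at 134 against 229.9 to 249. Aurka was high on leg control 2, at 327 against 198 to 223. Among leg mdx arrays, array 1 was low for Pcna (666; others 878 to 966). Array 4 of the same group was low for Cdkn2c (205; others 572 to 759). EOM control 2 was low for Mcm7 (141; others 293 to 376). EOM control 5 was high for Cks1b (257; others 32.4 to 62.8). EOM mdx 1 was low for Cdk2 (83.9; others 197 to 248).

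For 8 of the 26 tested genes the mdx effect in leg muscle exceeded that in EOM, tested as an interaction in limma, and for 0 it was smaller. Over all tested probe sets the shares were 4.93% and 1.29%. Of the 8, Rrm2, Cdk1 and Cks1b entered the test through the leg mdx arrays. The calls of Ccnd1, Mcm5 and Cdk1 were lost with no filter. The log2 difference between the effects was 2.91 for Cks1b, 2.57 for Stmn1, 2.27 for Ccna2, 2.16 for Mcm5, 1.81 for Cdk1, 1.49 for Rrm2, 1.09 for Ccnb2 and 1.07 for Ccnd1. The direction was the same for all 8, higher in mdx leg arrays, and the causes were not tested.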

How the results depend on the processing

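In leg muscle 11 genes were called, and 9 to 12 when single arrays were left out; a filter at 500 left 12 genes tested and 6 called, and the fit without leg control 1 and 4 called 9. In EOM 0 genes were called under each alternative run. The 8 differences of effects became 5 to 9 without single arrays (5 without EOM control 4, EOM control 5 or leg mdx 3) and 3 without leg control 1 and 4. Between the muscles of control mice 5 calls became 4 to 6 without single arrays, 3 with the filter at 500 and 3 without leg control 1 and 4. In mdx mice 9 became 8 to 11 without single arrays and 3 with the filter at 500. Counts under the other alternatives stayed within 1.5 times these. With a replicate block, leg muscle had 12 calls (11 higher and 1 lower), EOM 0, the difference of effects 7, control muscles 6 and mdx muscles 10; the lower leg signal of Cdkn1b gained a call (adjusted p = 0.0252) and the mdx muscle difference of Pcna lost it (0.0560). Whether the replicate numbers pair the arrays is not known. Same-number correlations of deviations ran from 0.01 to 0.23 between the genotypes of a muscle. Between the muscles of a genotype they ran from -0.08 to 0.08. Between the genotypes, the same number was the best match for leg control arrays 1, 3 and 5 and EOM control arrays 2, 4 and 5. Between the muscles it was the best match only for leg control 5 and leg mdx 5. Another number was the best match for the rest. No called difference changed sign under an alternative.

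Over all genes and alternatives, 12 single results in leg muscle and 39 in the difference of effects lost their call, and 6 and 6 gained one. Dim signal limits Mki67, Top2a and the other genes with arrays under the floor of 50, whose folds depend on that floor, and 5 arrays per group leave differences such as those of Mcm2, Mcm4, Rrm1 and Lig1 with standard errors of 0.36 log2 units or more.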

Other observations

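In EOM, Mcm2, another helicase subunit, gave 249, 155, 153, 361 and 484 on control and 368, 79.0, 85.8, 303 and 400.2 on mdx arrays, and Ccna2 gave 391, 132, 117, 403 and 444 on control and 403, 149, 236, 366 and 245 on mdx arrays. Both genes read lowest on arrays 2 and 3 of each genotype, although Ccna2 on mdx array 5 lay close to array 3. Mcm5 did not follow this order: it gave 153, 220.1, 355, 649 and 699 on EOM control and 376, 447, 268, 432 and 178 on EOM mdx arrays, lowest on control array 1 and mdx array 5. The pattern was seen only after the values were listed, the replicate numbers are not known to pair the arrays, and it was not tested.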
